A study of Arabidopsis thaliana with 6 samples.

Results

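The comparison set seedlings of a cdpk6-yfp line, numbered 4, against seedlings of a control line called aeq+. It used 4 of the 6 ATH1 arrays of the series, 2 for each line, chosen by the codes A2 (line 4) and A1 (control) in their titles. Of transgenes, the labels name cdpk6-yfp for line 4 and aequorin for the control, and they do not say whether line 4 also carries aequorin. The titles of the control arrays call them Kan, while their source names say aeq. All plants were whole Col-0 seedlings raised at 22 °C under days of 16 h light, with about 40 plants pooled for each array. Their age and any treatment are not given in the sources used here. Line 4 is a single line, and the promoter and expression level of its transgene are not given. The series asked, by its title, about the role of CDPK6 in development. The CDPK6 transcript is not reported here. None of the probe sets named below was CPK3 or CPK6, the genes that have carried this name. Their absence does not show whether either was measured or changed.

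Calcium-dependent protein kinases bind calcium directly and phosphorylate other proteins, among them parts of the plant immune and abiotic stress responses. In immunity, receptor-like kinases at the cell surface and intracellular NLR receptors detect microbes or their effectors. Salicylate and pipecolate then act as signals that raise secreted antimicrobial proteins and the secretory machinery. Calmodulin-like proteins, which bind calcium through EF hands, and calcium channels take part in many of these responses.

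Every array had a trimmed mean of 100.01 intensity units, and medians lay at 44.7 on both line 4 arrays and at 44.2 and 46.4 on the control arrays. Across all probe sets the log2 values correlated at r = 0.971 between the line 4 arrays, 0.962 between the control arrays and 0.947 to 0.953 between the lines. Degraded RNA gives a higher ratio of 3′ to 5′ signal. For actin it was 3.19 and 3.48 on the line 4 arrays and 4.27 and 4.30 on the control arrays. For GAPDH it was 1.54 and 1.43 on the line 4 arrays and 1.79 and 1.71 on the control arrays. The ratios of these 2 pairs thus moved with the lines, and their part in the results was not tested. A second GAPDH pair had near-equal signals in both lines. It read 1931.9 and 2035.0 units at 3′ and 1965.6 and 1924.7 at 5′ in line 4. In the control it read 1674.4 and 1574.0 at 3′ and 1648.3 and 1559.6 at 5′. Ratios of the other control pairs were not computed. Scanner background was 142.62 on control replicate 2 and 89.78 to 93.79 on the other 3 arrays. Transcripts of the photosynthetic apparatus were bright in both lines, as in green tissue. The root hair expansin genes EXPA7 (30.8 and 29.9 units in line 4, 37.8 and 36.7 in the control) and EXPA18 (33.6 and 32.0, against 39.6 and 36.0) gave low signals. The guard cell factor gene FMA was also dim, at 30.5 and 26.5 units in line 4 and 34.5 and 39.1 in the control. None of the 5 tissue markers measured passed the test, but all 5 lay below 0, with a median log2 difference of -0.34. Both line 4 arrays were below both control arrays at all 5, as at 30.7% of all probe sets, and their part in the results was not tested. In whole seedlings, fewer cells of a type and less RNA per cell cannot be told apart.

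The calls in line 4 were more often rises than falls, and the rises were larger. Of 22746 probe sets tested, 1265 (5.56%) passed in limma at an adjusted p under 0.05, of which 750 (3.30%) were higher and 515 (2.26%) lower in line 4. Beyond 2-fold there were 309 rises and 95 falls, beyond 8-fold 72 and 16, and beyond 16-fold 41 and 3. The median difference over all probe sets was -0.06 on the log2 scale. Among the 13648 brighter probe sets 8.40% were called, 4.84% higher and 3.55% lower, and among those of 1 named gene 4.30% were called, 2.43% higher and 1.87% lower. Both line 4 arrays lay above both control arrays at 4980 probe sets (21.9%) and below them at 6992 (30.7%). All 1265 calls were among these, so a lack of overlap adds nothing to a call. Of the 404 changes beyond 2-fold, 198 belonged to probe sets of 1 named gene, and an unnamed probe set is not one without a gene.

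The number of calls depended on all 4 arrays. Without line 4 replicate 1 or without line 4 replicate 2, limma called 2 probe sets, and 2950 and 2891 had an unadjusted p under 0.05. Without control replicate 1 or without control replicate 2 it called 0, with 4649 and 4333 at an unadjusted p under 0.05. Of the 141 passing probe sets named by the rule, 1 was called in any of these 4 fits. When the dimmest 40% of probe sets were left out as well, a setting chosen after seeing the data, 899 to 2230 were called without 1 array. Each of these fits leaves 1 line with a single array that is assumed to vary like the other line, and a probe set can pass the filter through the line where it is high. Of 114 brighter calls named by the rule 84 were kept in all 4, which is a description and no support for them. With no variance trend 4 probe sets were called, with 3784 at an unadjusted p under 0.05. With an array of conflicting labels (title code A3-1, a control by its source name and line 1 by its strain) as an added control, the count was 114.

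**Figure D1:**
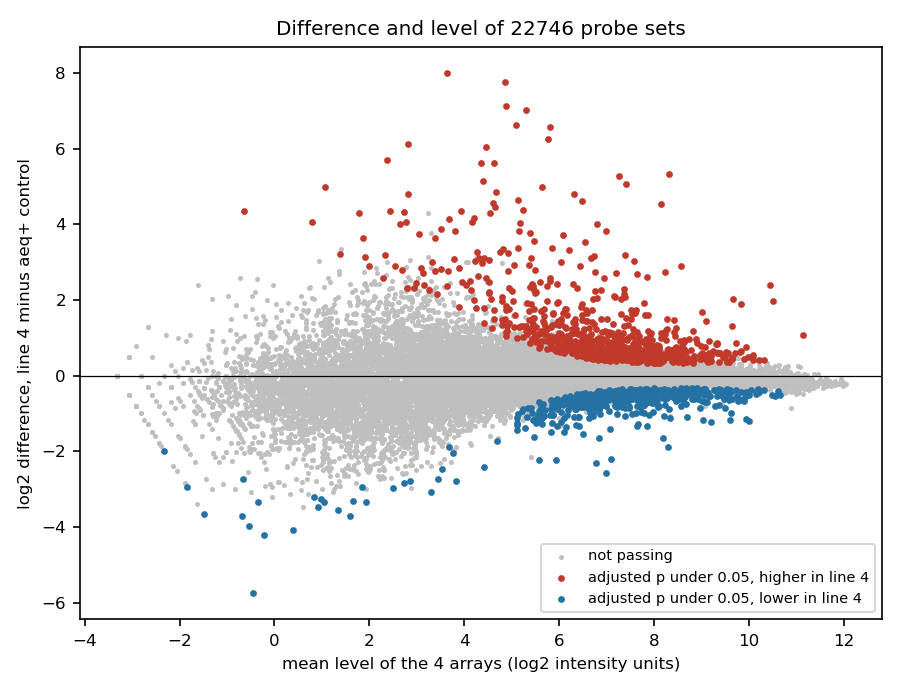
The log2 difference of each of 22746 probe sets, line 4 minus aeq+ control, is plotted against its mean log2 intensity over the 4 arrays. Red points were higher and blue points lower in line 4 at an adjusted p under 0.05, and the 41 rises beyond 16-fold stand apart from 3 falls of that size.

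Among the 30 largest named rises, which spanned 2.63 to 7.02 on the log2 scale, most transcripts were close to the bottom of the scale in the control. AT5G55450, of the lipid transfer protein family, gave 442.1 and 453.2 units in line 4, against 3.7 and 3.2 in the control. Its log2 difference was 7.02 ± 0.18 (SE, n = 2 against 2, adjusted p = 9.1e-05). AT1G13470 gave 61.7 and 56.2 units in line 4, against 1.2 and 0.6 in the control (6.12 ± 0.54, adjusted p = 0.0046). The line 4 arrays lay far above both controls at each gene, and the choice of genes required them to lie above. Since the fold of such dim controls rests on small values, the difference of log2(value + 10) is a second measure, at 5.09 for AT5G55450 and 2.66 for AT1G13470.

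Several enzymes stood among these rises. SAL2, of the inositol phosphatase family, reached 71.6 and 67.3 units in line 4, against 1.5 and 7.7 in the control (4.35 ± 0.76, adjusted p = 0.032, and 2.48 on the log2(value + 10) scale). NDB4, an NAD(P)H dehydrogenase of the mitochondrial respiratory chain, gave 24.0 and 38.5 units, against 3.2 and 1.6 in the control (3.75 ± 0.56, adjusted p = 0.021, or 1.71 with the added 10). ICL, isocitrate lyase of the glyoxylate cycle, gave 33.5 and 40.1 units in line 4, against 2.8 and 3.1 in the control (3.64 ± 0.41, adjusted p = 0.009, or 1.85 with the added 10). No array of one line overlapped the other at these 3 genes, which the choice of genes required. ICL, however, also read 31.2 units on A3-1 and 78.2 on the array labelled line 1 (title code A3-2). With A3-1 as an added control SAL2, NDB4 and ICL kept their direction, but none of the 3 passed in limma. The subtilisin-type protease genes SBT3.5 and SBT3.3 also rose, by 3.11 ± 0.58 and 2.81 ± 0.44, or by 1.96 and 1.49 with the added 10. After quantile normalization SBT3.5 did not pass (adjusted p = 0.0546). SBT3.5 gave 61.8 and 54.8 units in line 4 and 12.3 and 3.7 in the control, and SBT3.3, known from immune priming, 34.3 and 26.9 in line 4 and 3.4 and 5.5 in the control.

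AT3G60420 reached 522.8 and 437.4 units in line 4, against 40.7 and 27.6 in the control, on 1 probe set, while its other probe set read 2.4 and 2.7 in line 4 and 2.6 and 3.3 in the control. The 2 probe sets of this gene thus disagreed. Of the 30 rises, 12 belonged to the brighter probe sets. With A3-1 as an added control all 30 kept their direction and 12 still passed. On the array labelled line 1 (title code A3-2), 11 of the 30 lay above both controls, and on A3-1 13 did. The rises were chosen against these same control arrays, so these counts are no support for them.

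**Figure D2:**
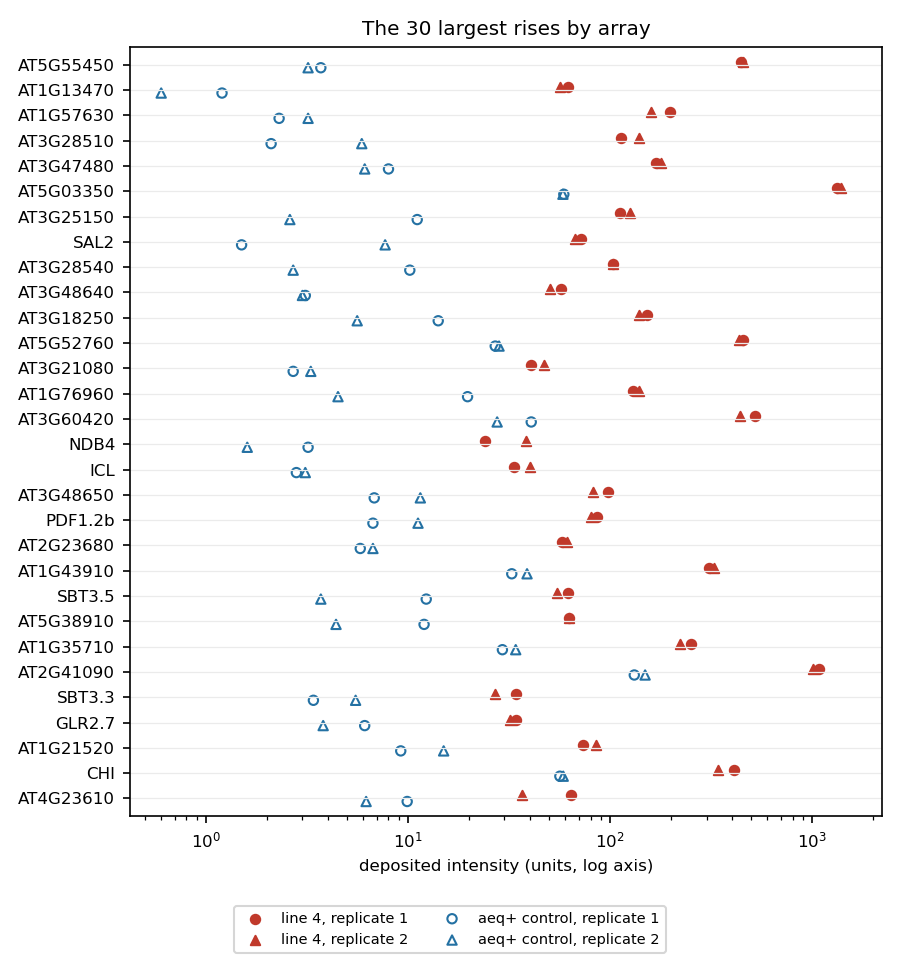
Deposited intensity on a log axis of the 30 largest named rises on each array, with line 4 in filled red and aeq+ control in open blue symbols. Line 4 and control symbols do not overlap at any gene, which the choice of genes required. AT5G55450 at the top had 442.1 and 453.2 units in line 4 and 3.7 and 3.2 in the control.

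Most genes of intracellular immune reception did not pass the test. Of 84 probe sets for intracellular NLR receptors and related TIR-domain proteins, 4 (4.76%) rose, 0 fell and 80 did not pass, with a median of 0.19. Over all probe sets 3.30% rose, and over those of 1 gene, from which each list was drawn, 2.43% rose. With the dimmest 40% left out, 7 rose. AT1G57630, which encodes a TIR-domain protein, gave 198.9 and 158.7 units in line 4, against 2.3 and 3.2 in the control (6.03 ± 0.31, adjusted p = 0.00073, or 3.88 on the log2(value + 10) scale). AT3G04210, of the TIR-NBS type, gave 131.0 and 127.8 units in line 4, against 44.0 and 52.7 in the control (1.43 ± 0.12, adjusted p = 0.0044). AT5G58120, a TIR-type NLR gene, gave 185.5 and 160.7 units in line 4, against 57.5 and 76.9 in the control (1.38 ± 0.16). Line 4 lay above the control without overlap in each, as at every called rise. AT5G45510, which encodes a leucine-rich repeat protein, rose least, by 0.76 ± 0.07.

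Among 103 probe sets for receptor-like kinases 10 (9.71%, beside 2.43% of all probe sets of 1 gene) rose and 0 fell. Their median was 0.16, and 93 did not pass. AT1G35710, a leucine-rich repeat kinase, gave 250.3 and 221.9 units in line 4, against 29.3 and 34.1 in the control (2.90 ± 0.12, adjusted p = 0.00041). AT1G66880 gave 103.2 and 97.0 units in line 4, against 17.7 and 19.4 in the control (2.43 ± 0.16, adjusted p = 0.0017). AT1G69730, of the wall-associated kinase-like family, gave 81.1 and 59.3 units in line 4, against 18.8 and 11.7 in the control (2.23 ± 0.31, adjusted p = 0.017). These 3 genes showed no overlap between the lines, as was so at every call. AT4G27300, an S-locus lectin-type kinase, rose by 1.14 ± 0.09, AT5G39020, of the malectin-like type, by 1.17 ± 0.18 and AT1G74360 by 1.15 ± 0.23, which did not pass on the log2(value + 10) scale (adjusted p = 0.0552). AT5G59670 rose by 3.64 ± 0.56, but at 15 and 11.2 units in line 4 and 1.2 and 0.9 in the control it was dim in both lines, and the difference was 1.06 with the added 10.

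Calcium genes changed in both directions. Of 53 probe sets for sensors, channels and pumps, 8 (15.1%) rose and 2 (3.77%) fell, and the median was -0.15. The shares over all probe sets of 1 gene were 2.43% and 1.87%. AT3G47480 (CML47) gave 169.2 and 178.9 units in line 4, against 8.0 and 6.1 in the control (4.64 ± 0.22, adjusted p = 0.00052, or 3.43 on the log2(value + 10) scale). GLR2.7, a glutamate receptor-like channel, gave 34.1 and 32.0 units in line 4, against 6.1 and 3.8 in the control (2.78 ± 0.41, adjusted p = 0.021, or 1.53 with the added 10). CML41 gave 125.5 and 117.6 units in line 4, against 23.8 and 23.3 in the control (2.37 ± 0.13, adjusted p = 0.001). Line 4 was above both controls at all 3, as at every called rise. The EF-hand genes AT3G01830 and AT5G39670 rose by 1.66 ± 0.10 and 1.59 ± 0.08, and CML42 by 0.53 ± 0.08. CML23 fell to 43.1 and 42.8 units in line 4, against 98.0 and 104.9 in the control (-1.24 ± 0.11, adjusted p = 0.0052), and AT3G10190 fell by 0.76 ± 0.12. However, CML23 read 12 units on A3-1 and 26.2 on the array labelled line 1, below both line 4 arrays. With A3-1 as an added control the CML23 difference was -0.21 and did not pass.

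Salicylate and pipecolate genes rose at 5 of the 7 probe sets measured (71.4%, beside 2.43% of all probe sets of 1 gene). Their median was 1.76. The list holds 54 loci, so most of it was not analysed here. UGT76B1, which glucosylates salicylate and related immune signals, gave 249.5 and 205.2 units in line 4, against 45.9 and 64.0 in the control (2.06 ± 0.18, adjusted p = 0.0044). GRX480, a glutaredoxin that interacts with TGA transcription factors, gave 138.2 and 118.8 units in line 4, against 35.1 and 41.0 in the control (1.76 ± 0.14, adjusted p = 0.0032). SAG101, a partner of EDS1 in NLR signalling, gave 77.2 and 69.7 units in line 4, against 34.0 and 44.9 in the control (0.91 ± 0.18, adjusted p = 0.046). Line 4 exceeded the control on every array for these genes, as at every called rise. BSMT1 and UGT74F1, a salicylate methyltransferase and a glucosyltransferase, were near the bottom of the scale in both lines. BSMT1 read 2.7 and 7.8 units in line 4 and 2.8 and 10.7 in the control, and did not pass. SAG101 did not pass on the log2(value + 10) scale (adjusted p = 0.0555) and lost its call in at least 1 of the filtered fits without 1 array.

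Secreted defence proteins were split. Of 53 probe sets for lectins, chitinases, glucanases and pathogenesis-related proteins, 8 (15.1%) rose, 3 (5.66%) fell and 42 did not pass. Their median was -0.11. Among all probe sets of 1 gene 2.43% rose and 1.87% fell. With the dimmest 40% left out 8 rose and 7 fell. The lectin gene AT3G16530 gave 1001.1 and 857.0 units in line 4, against 264.0 and 317.1 in the control (1.68 ± 0.12, adjusted p = 0.0021). OSM34, an osmotin-like protein, gave 581.3 and 504.3 units in line 4, against 248.1 and 208.2 in the control (1.25 ± 0.11, adjusted p = 0.0048). On A3-1, however, OSM34 read 620.1 units, above both line 4 arrays, and on the array labelled line 1 it read 79.9. With A3-1 as an added control all 8 rises kept their direction and 2 passed in limma, and OSM34 did not (adjusted p = 0.60). The chitinase family genes AT4G01700 and AT2G43620 rose by 1.39 ± 0.16 and 1.32 ± 0.17. The plant defensin PDF1.2b, a marker of jasmonate and ethylene responses, gave 85.8 and 80.6 units in line 4, against 6.7 and 11.2 in the control (3.26 ± 0.31, adjusted p = 0.0056, or 2.31 on the log2(value + 10) scale). Its probe set is of a type that can also read near-identical copies, so the gene is uncertain. Another defensin, PDF2.1, fell by 0.89 ± 0.15, with 72.6 and 84.8 units in line 4 and 165.1 and 127.9 in the control. The thaumatin family gene AT4G38660 fell by 0.44 ± 0.08 and the jacalin-type lectin gene AT1G52100 by 0.40 ± 0.08, and both lost their call in at least 1 of the filtered fits without 1 array.

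All 9 probe sets listed for AAA-type ATPases lay above 0, and 4 (44.4%, beside 3.30% of all probe sets) rose, with a median of 2.27. The list holds 15 loci, chosen with earlier results of these data known, and does not stand for the family. Only 2 of the 9 were among the brighter probe sets. AT3G28510 gave 113.1 and 139.1 units in line 4, against 2.1 and 5.9 in the control (5.16 ± 0.52, adjusted p = 0.0066). AT3G28540 gave 103.5 and 103.9 units in line 4, against 10.2 and 2.7 in the control (4.30 ± 0.61, adjusted p = 0.018). With 10 added before the log the differences were 3.29 and 2.83. AT3G28580 lies in the same stretch of chromosome 3 and gave 22.9 and 19.3 units in line 4 and 3.4 and 5.6 in the control, which did not pass (adjusted p = 0.051).

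Some rises were neighbours in gene order. Of 152 loci with a rise beyond 2-fold, 30 (19.7%) had another such locus within 5 genes, whereas 534 of all 13217 measured loci (4.04%) had such a rise that near. For falls beyond 2-fold these shares were 8.89% of 45 loci and 1.37% of 13217. The 30 loci formed 14 runs of at most 3 genes. One run held the heavy-metal-associated domain genes AT5G52740, AT5G52750 and AT5G52760, of which AT5G52740 and AT5G52750 were named after their values were seen. AT5G52740 gave 35.2 and 35.8 units in line 4 and 10.4 and 10.0 in the control, and AT5G52750 302.9 and 310.0 in line 4 and 107.7 and 109.0 in the control. Other runs paired SBT3.5 with SBT3.3, CYP71B23 with CYP71B24 and AT3G48640 with AT3G48650. Many such neighbours are related copies, and probes that read both copies were not tested for.

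Of 51 probe sets for UDP-glycosyltransferases, which attach sugars to small molecules, 6 (11.8%) rose and 2 (3.92%) fell. The median was -0.09 and 30 of 51 lay below 0. With the dimmest 40% left out 5 rose and 4 fell. Among all probe sets of 1 gene 2.43% rose and 1.87% fell. UGT73D1 gave 35.3 and 40.1 units in line 4, against 7.1 and 7.3 in the control (2.39 ± 0.32, adjusted p = 0.015, or 1.47 with the added 10), and UGT87A2 gave 137.2 and 143.7 units, against 53.8 and 66.4 in the control (1.23 ± 0.13, adjusted p = 0.0072). UGT74B1, of glucosinolate synthesis, rose by 0.45 ± 0.07. UGT73B1 and UGT76E11 fell by 0.80 ± 0.15 and 0.78 ± 0.15. The UGT76E11 fall did not pass on the log2(value + 10) scale (adjusted p = 0.0561). Among 24 cytochrome P450 probe sets 3 (12.5%) rose and 0 fell, and the median was 0.08. CYP71B23 gave 105.4 and 100.1 units in line 4, against 30.8 and 35.6 in the control (1.63 ± 0.14, adjusted p = 0.0039), and CYP71B24 rose by 2.21 ± 0.36, or 1.52 with the added 10. The glutathione transferase gene GSTU25 was the only called member of 14, with 263.0 and 336.5 units in line 4 and 127.5 and 138.3 in the control (1.16 ± 0.13, adjusted p = 0.0085).

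Redox genes changed in both directions. Of 27 glutaredoxin and thioredoxin probe sets 2 (7.41%) rose and 4 (14.8%) fell, with a median of -0.09. The shares over all probe sets of 1 gene were 2.43% and 1.87%. AT3G62950, a CC-type glutaredoxin, gave 56.1 and 50.0 units in line 4, against 140.4 and 167.7 in the control (-1.53 ± 0.13, adjusted p = 0.0037). The related AT4G15680 fell by 0.91 ± 0.17, and NTRC, a chloroplast thioredoxin reductase, by 0.44 ± 0.08, while GRXC1 rose by 0.46 ± 0.08. Of 59 probe sets for peroxidases and reactive oxygen enzymes, 1 (1.69%) rose and 2 (3.39%) fell. These counts were 4 and 3 with the dimmest 40% left out. The peroxidase gene Prx37 rose by 1.29 ± 0.14, with 90.8 and 85.9 units in line 4 and 34.0 and 38.6 in the control. The peroxidase genes AT3G21770 and AT5G66390 fell by 0.90 ± 0.14 and 0.75 ± 0.11.

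Of 42 probe sets for protein entry into the endoplasmic reticulum (ER), secretion and folding 4 (9.52%) rose and 0 fell, 29 of 42 lay above 0, and the median was 0.16. With the dimmest 40% left out 7 rose and 1 fell. Among all probe sets of 1 gene 2.43% rose and 1.87% fell in the main fit. AT3G60540, a beta subunit of the Sec61 channel, gave 159.2 and 171.6 units in line 4, against 42.1 and 52.5 in the control (1.81 ± 0.13, adjusted p = 0.0024). ATERDJ3B, a cochaperone of the ER lumen needed for surface immune receptors, gave 352.3 and 339.7 units in line 4, against 186.4 and 173.8 in the control (0.94 ± 0.07, adjusted p = 0.0026). Both genes were higher on each line 4 array, as at every called rise. ATERDJ2B, linked to the Sec complex, rose by 0.58 ± 0.12 and the Sec61 gamma gene AT3G48570 by 0.38 ± 0.07, and both lost their call in at least 1 of the filtered fits without 1 array. ATERDJ2B also did not pass on the log2(value + 10) scale (adjusted p = 0.0563). Among 18 heat shock protein and chaperone probe sets 3 (16.7%) rose and 0 fell, with a median of 0.30. The cytosolic chaperone gene Hsp70-2 gave 279.0 and 313.2 units in line 4, against 69.7 and 67.8 in the control (2.10 ± 0.09, adjusted p = 0.00041). AT3G09440, which encodes another cytosolic Hsp70, rose by 0.71 ± 0.07, and AT5G48570, an FKBP-type isomerase, by 1.31 ± 0.26. The call of AT5G48570 was lost on the log2(value + 10) scale (adjusted p = 0.0559), after quantile normalization (0.0531) and in at least 1 of the filtered fits without 1 array.

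Of 131 ribosomal protein probe sets 0 rose and 2 (1.53%, beside 1.87% of all probe sets of 1 gene) fell. Below 0 lay 94 of the 131. Of these probe sets 120 were among the brighter ones, with a median of -0.12, where the median over all brighter probe sets was -0.03. Both line 4 arrays lay below both controls at 61 of 131, beside 30.7% of all probe sets. Again 2 fell with the dimmest 40% left out, and without control replicate 2 as well 23 fell. AT4G39200 and AT3G28900, the called members, fell by 0.55 ± 0.09 and 0.34 ± 0.07, and both lost their call in at least 1 of the filtered fits without 1 array. None of 13 nuclear photosynthesis probe sets passed, and their median was -0.20. PSBW, a subunit of photosystem II, gave 2325.7 and 2226.9 units in line 4 and 2943.6 and 2647.1 in the control (adjusted p = 0.17). LHCB4.3 gave 105.4 and 99.8 units in line 4 and 68.6 and 76.8 in the control (adjusted p = 0.057).

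**Figure D3:**
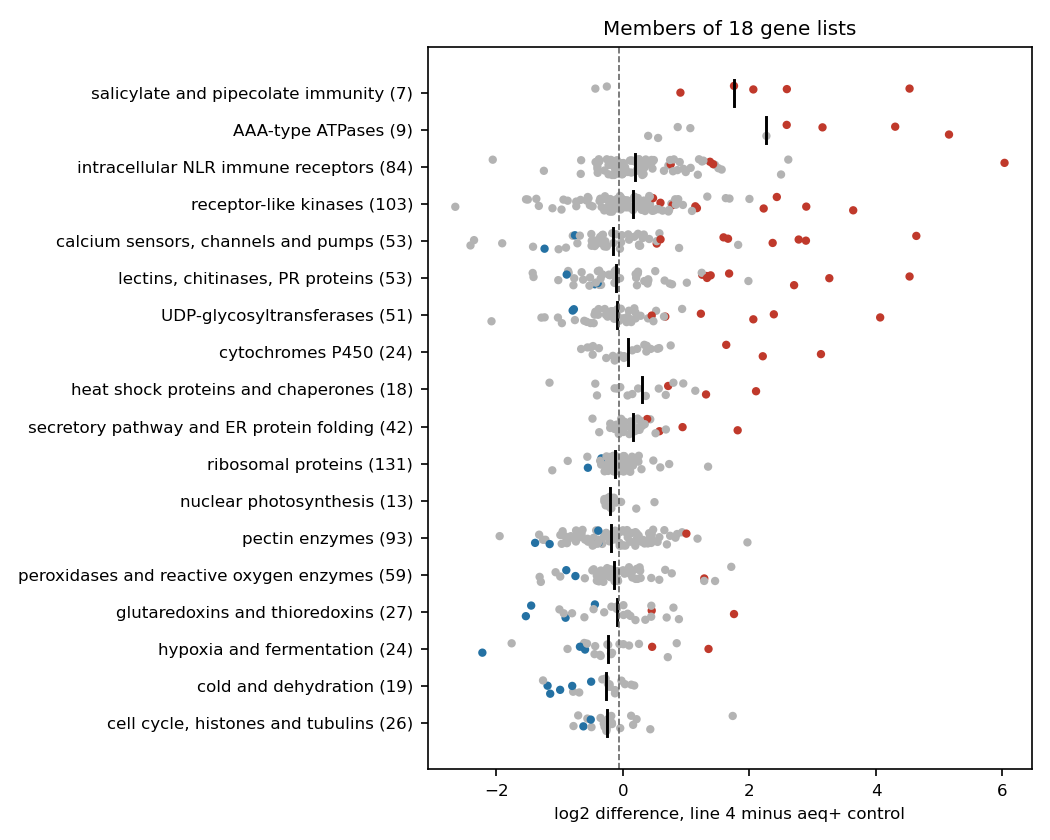
The log2 difference, line 4 minus aeq+ control, of each probe set in 18 gene lists, with the number of probe sets in brackets. Red and blue points rose and fell at an adjusted p under 0.05, grey points did not pass, black bars are list medians and the dashed line is the median of all probe sets, -0.06.

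Over all probe sets 3.30% rose and 2.26% fell, and over those of 1 gene 2.43% rose and 1.87% fell. Of 38 probe sets for protein phosphatases 2C and abscisic acid signalling, 4 (10.5%) rose and 1 (2.63%) fell, with a median of -0.02. AT1G34750 gave 71.6 and 68.4 units in line 4, against 30.1 and 35.8 in the control (1.09 ± 0.16, adjusted p = 0.02). AT3G05640 gave 34.4 and 40.8 units in line 4, against 92.9 and 85.0 in the control (-1.25 ± 0.15, adjusted p = 0.011). The phosphatase genes thus lay on opposite sides of the control. Of 22 ubiquitin ligase probe sets 1 (4.55%) rose and 1 (4.55%) fell. PUB19, a U-box ligase of abscisic acid and drought responses, fell to 83.3 and 109.1 units in line 4, against 197.4 and 168.7 in the control (-0.94 ± 0.15, adjusted p = 0.026). However, PUB19 read 38.1 units on A3-1 and 29.8 on the array labelled line 1, below both line 4 arrays. With A3-1 as an added control its difference was -0.18 and did not pass.

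Of 31 AP2/ERF probe sets 0 rose and 2 (6.45%, beside 1.87% of all probe sets of 1 gene) fell. ORA47, a jasmonate-linked regulator, gave 168.7 and 161.6 units in line 4, against 358.9 and 324.4 in the control (-1.05 ± 0.08, adjusted p = 0.0025). However, ORA47 read 43.6 units on A3-1 and 46.6 on the array labelled line 1, below both line 4 arrays. With A3-1 as an added control its difference was -0.06 and did not pass. AT1G19210 gave 30.7 and 27.4 units in line 4, against 60.1 and 71.0 in the control (-1.17 ± 0.17). Of 7 WRKY probe sets measured, for a list of 70 loci, WRKY22, linked to early immune signalling, fell by 0.44 ± 0.09 (adjusted p = 0.049) and 0 rose. The WRKY22 fall did not pass on the log2(value + 10) scale (adjusted p = 0.0509) and lost its call in at least 1 of the filtered fits without 1 array. Of 16 VQ motif probe sets, AT1G78410 rose by 2.03 ± 0.38 (1.39 with the added 10) and AT3G56880 fell by 0.52 ± 0.08. With A3-1 as an added control, the AT3G56880 difference was 0.26 and did not pass.

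Low-oxygen genes were mixed, with 2 (8.33%) of 24 probe sets higher, 3 (12.5%) lower and a median of -0.24. The shares over all probe sets of 1 gene were 2.43% and 1.87%. AT1G33055 gave 30.3 and 26.6 units in line 4, against 131.4 and 133.6 in the control (-2.22 ± 0.13, adjusted p = 0.0011). AT3G10020 gave 424.0 and 390.8 units in line 4, against 640.4 and 663.9 in the control (-0.68 ± 0.07, adjusted p = 0.0078). AT4G17670 gave 96.0 and 116.8 units in line 4, against 44.4 and 38.7 in the control (1.35 ± 0.15, adjusted p = 0.0087). The lines did not overlap at these genes, as was so at every call.

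Of 93 pectin enzyme probe sets 1 (1.08%) rose and 4 (4.30%) fell, with a median of -0.19, and 35 of the 93 were among the brighter ones. With the dimmest 40% left out 4 rose and 6 fell. Among all probe sets of 1 gene 2.43% rose and 1.87% fell in the main fit. AT1G10640, of the polygalacturonase family, gave 23.2 and 24.6 units in line 4, against 73.0 and 53.6 in the control (-1.39 ± 0.21, adjusted p = 0.023). AT1G60590, of the same family, gave 28.6 and 31.7 units in line 4, against 57.9 and 78 in the control (-1.16 ± 0.20, adjusted p = 0.03). AT1G04680, of the pectate lyase family, and AT3G06770 each fell by 0.39 ± 0.08. Both lost their call in at least 1 of the filtered fits without 1 array. PMEPCRF, a pectin methylesterase, rose by 1.00 ± 0.08, with 218.7 and 201.9 units in line 4 and 105.2 and 104.5 in the control. Among 30 expansin and xyloglucan enzyme probe sets XTH19 alone passed, with a rise of 1.76 ± 0.20, and the median was -0.23. With the dimmest 40% left out 2 rose and 4 fell. Of 35 protease probe sets 1 (2.86%) rose and 3 (8.57%) fell, among them the subtilisin gene SBT4.12 by 0.72 ± 0.13, while SBT3.5 and SBT3.3, described above, were not in that list.

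The 30 largest named falls were smaller than the rises, at 0.97 to 2.77 on the log2 scale, and 29 of them belonged to the brighter probe sets. AT3G03870 gave 5.4 and 5.5 units in line 4, against 33.3 and 41.7 in the control (-2.77 ± 0.35, adjusted p = 0.013, or -1.61 on the log2(value + 10) scale). ARPN, the small copper protein plantacyanin, gave 36.3 and 34.6 units in line 4, against 76.7 and 71.4 in the control (-1.06 ± 0.14, adjusted p = 0.014). AT1G74460, of the GDSL lipase family, gave 53.8 and 64.1 units in line 4, against 125.1 and 124.8 in the control (-1.09 ± 0.12). Line 4 lay below the control without overlap at these genes, which their choice required. AT3G07350 fell by 1.00 ± 0.11, and AT1G12730 by 0.97 ± 0.12. With A3-1 as an added control 25 of 30 kept their direction and 3 still passed. On the array labelled line 1, 23 of the 30 lay below both controls, and on A3-1 21 did. The falls were chosen against these same control arrays, and the share over all probe sets was not counted. These counts are thus no support for the falls.

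**Figure D4:**
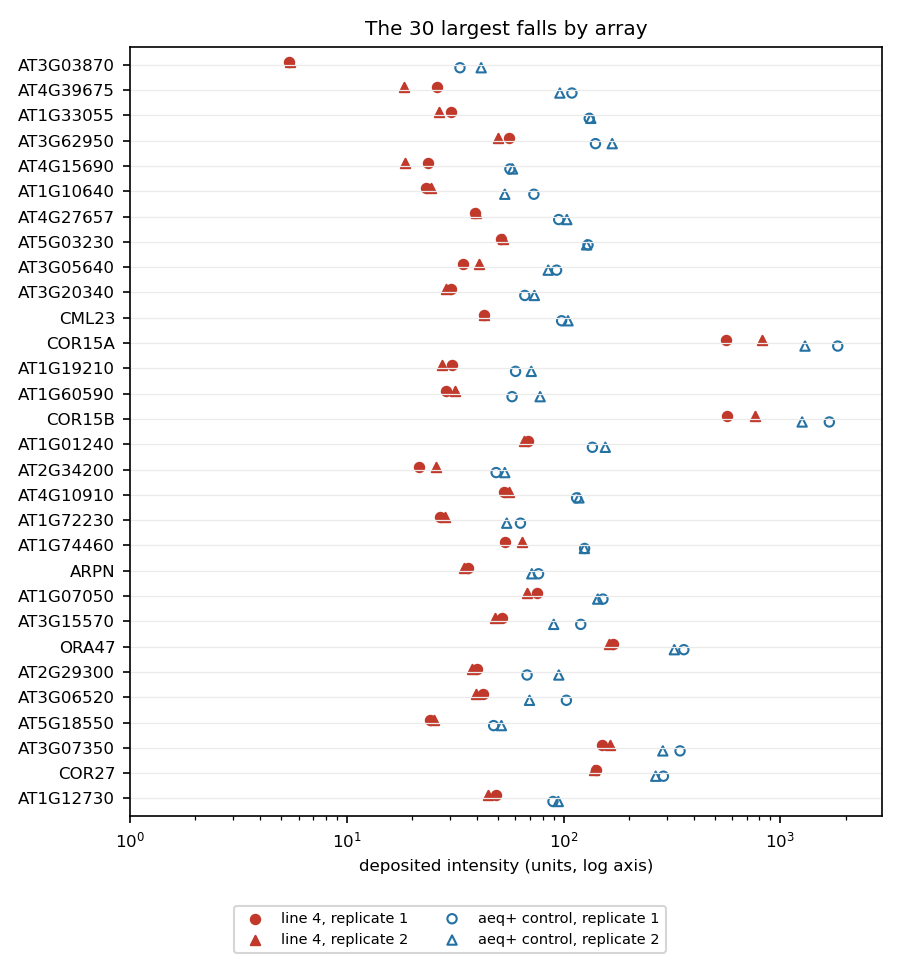
Deposited intensity on a log axis of the 30 largest named falls on each array, with line 4 in filled red and aeq+ control in open blue symbols. Line 4 lies below the control at every gene, which the choice of genes required. AT1G33055 had 30.3 and 26.6 units in line 4 and 131.4 and 133.6 in the control.

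Cold-regulated genes fell at 5 of 19 probe sets (26.3%, beside 1.87% of all probe sets of 1 gene), with 0 rises and a median of -0.27. COR47, a dehydrin, gave 1336.9 and 1360.5 units in line 4, against 2059.1 and 1773.5 in the control (-0.50 ± 0.10, adjusted p = 0.048). COR15A gave 559.0 and 819.9 units in line 4, against 1840.0 and 1299.6 in the control (-1.19 ± 0.23, adjusted p = 0.041). On the log2(value + 10) scale neither COR47 (adjusted p = 0.056) nor COR15A (0.0502) passed. Of 9 clock and B-box probe sets 3 (33.3%) fell. These were AT1G07050, a CCT-domain gene, with COR27 and AT4G33980, which the cold list also holds. AT1G07050 gave 75.4 and 67.5 units in line 4, against 152.0 and 143.8 in the control (-1.05 ± 0.10, adjusted p = 0.0054). GI, a central clock gene, gave 314.2 and 318.4 units in line 4 and 333.4 and 322.0 in the control, and did not pass. With A3-1 as an added control only 1 of the 5 cold genes and 0 of the 3 clock genes kept their direction.

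Of 26 probe sets for cell cycle, histones and tubulins 2 (7.69%, beside 2.26% of all probe sets) fell, TUB7 by 0.51 ± 0.10 and the histone gene HTB2 by 0.63 ± 0.12. Both lost their call in at least 1 of the filtered fits without 1 array, and 6 fell with the dimmest 40% left out. Of 14 auxin probe sets 1 (7.14%) fell, and 0 rose. This gene, WES1, which conjugates auxin and salicylate to amino acids, gave 121.1 and 141.5 units in line 4, against 199.7 and 201.2 in the control (-0.61 ± 0.10, adjusted p = 0.024). No probe set passed among 14 ion, sugar and nutrient transporters, 12 wall glycoproteins, 6 jasmonate and ethylene genes or 6 phenylpropanoid genes. EIN3, the main transcription factor of ethylene signalling, gave 279.9 and 294.1 units in line 4 and 276.9 and 262.9 in the control (0.09 ± 0.07, adjusted p = 0.51). MYC3, a jasmonate transcription factor, gave 61.4 and 53.7 units in line 4 and 47.2 and 52.7 in the control (0.20 ± 0.15, adjusted p = 0.48).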

How the data were processed

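Biotin-labelled RNA was hybridised to ATH1 arrays. The deposited values are intensities on a linear scale, and how the authors summarised probes is not stated in the labels. Equal trimmed means show a common scaling of the arrays before deposit. In the table, 64 of 22810 probe sets were array controls and were left out. Values of 0 (82 on the 4 arrays) were raised to 0.1, and log2 was taken without further scaling.

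Line 4 was compared with the control in limma 3.58.1 under R 4.3.3 (lmFit, then eBayes with trend), with 2 residual degrees of freedom and Benjamini-Hochberg adjustment over all probe sets at 0.05. The fit was tested on simulated data. The labels do not say whether pools were grown apart, and p-values therefore cover only the spread between them, while the number of arrays limits the precision.

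Names came from the platform annotation, with symbols updated through the TAIR10.1 gene table. Of the probe sets tested, 13513 had 1 gene, 503 several and 8730 none, and 11885 carried a locus code only. Gene order came from the same table. Genes named are the 30 largest rises and 30 largest falls that passed without overlap and with a higher mean of at least 30 units, and up to 8 called members in each direction of 42 gene lists and a list of tissue markers (up to 3 where none passed). Not every gene that the rule allows is printed. AT3G28580, GI, BSMT1, UGT74F1, EXPA7, EXPA18, AT5G52740 and AT5G52750 were named outside this rule after their values were seen. List members held by locus code were assigned from general knowledge of gene families. The members and lists were chosen with earlier results of these data known, and calls in the lists are no independent support for them. Alternatives were a brightness filter, log2(value + 10), quantile normalization, no trend, a replicate block, the A3 arrays in the fit and each array left out. Same-numbered arrays did not deviate together (r = -0.022).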

Additional observations from a re-analysis of the deposited data

Results flagged for a closer look

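The probe set for 25S ribosomal RNA, an array control outside the comparison, read 275.4 and 915.9 units in line 4, against 282.1 and 277.2 in the control. The value of 915.9 on line 4 replicate 2 stood above both control arrays. Its part in the results was not tested.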

How the results depend on the processing

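The 1265 calls (750 higher, 515 lower) came to 2125 (1133 and 992) with the dimmest 40% of probe sets left out, where fewer were tested. They came to 4 (4 and 0) with no variance trend, 114 (104 and 10) with A3-1 as an added control and 159 (143 and 16) with both A3 arrays as a separate group. Without 1 array, limma called 0 to 2 (0 to 2 higher, 0 lower), with 2891 to 4649 at an unadjusted p under 0.05. With the dimmest left out as well, chosen after seeing the data, it called 899 and 976 without a line 4 array and 2171 (1165 higher, 1006 lower) and 2230 (1145 and 1085) without a control array. For the lists, the dimmest 40% left out moved 26 of 84 counts by over 1.5 times, and the no-trend fit moved 40. The cause was not tested, beyond fewer samples and fewer probe sets.

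The replicate block, for which the numbers share no stated batch, gave 982 calls (632 higher and 350 lower), and 24 of 171 probe sets named by the rule no longer passed. Log2(value + 10) gave 1255 and quantile normalization 1391, with which 10 and 3 of those named no longer passed. With A3-1 as an added control the difference turned to 0.67 for AT1G07050, 0.0586 for AT3G23170, 0.26 for AT3G56880, 0.0655 for AT4G27657, 1.21 for AT4G33980, 0.50 for COR15A, 0.50 for COR15B and 0.91 for COR27, with none passing. No other call named by the rule turned under the alternatives run. However, with A3-1 added the falls of ORA47 (-0.06), UGT76E11 (-0.09), COR47 (-0.02) and AT1G52100 (-0.006) came close to 0. In at least 1 filtered fit without 1 array, CML42, UGT74B1, UGT76E11, GRXC1, NTRC, AT4G15680, AT3G56880, COR47 and AT3G23170 also lost their call. Dim probe sets limit what can be seen, since of 9098 left out by the filter 119 passed.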
